A study of Mus musculus with 24 samples.

Results

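A set of 45 genes that copy and divide the genome was followed in RNA-Seq of the mouse lung, 17 of them genes of DNA replication and 28 genes of mitosis. The members were the rows of the deposited expression table, which lists 23891 genes, whose symbols stood on a list of well known cell division genes, and each of the 45 symbols was found. The left lung lobe of C57BL/6 mice was sampled in 4 groups: naive adult mice (20 wk old, saline, 5 samples), naive aged mice (80 to 82 wk old, saline, 5 samples), aged mice given house dust mite extract (HDM, 7 samples), and aged mice given HDM and dexamethasone (HDM + Dex, 7 samples). HDM is an inhaled allergen, here given by nose at 50 µg per dose in a sensitization phase and repeated challenges, and dexamethasone is a synthetic glucocorticoid, here 4 mg/kg by intraperitoneal injection every 72 h of the challenge period. Lungs of the HDM-exposed mice were taken 24 h after the last challenge. No adult mice given HDM were analysed here, and the labels do not say whether each sample is a separate mouse, so that p-values measure only the spread between these samples.

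A cell that commits to division first makes the enzymes and loading factors of DNA replication, which are switched on by E2F transcription factors at the end of the G1 phase. The kinases, cyclins, motor proteins and checkpoint proteins of mitosis are switched on later, in G2, largely through the FoxM1 and B-Myb proteins acting with the MuvB core complex. Most cells of the resting lung are out of the cycle, so the RNA of these genes comes from the small part of the tissue that divides, which in inflamed lungs can include lymphocytes, macrophages, epithelium, endothelium and fibroblasts. In whole tissue, fewer dividing cells and less of the RNA per dividing cell cannot be told apart.

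The libraries held 10.1 to 33.1 M reads (M, 10 to the power of 6), as estimated from the spacing of the lowest values, so that 3 reads were worth 0.0906 to 0.298 CPM (counts scaled to a common library total). The small structural RNA 7SL took 9.92% to 18.1% of all counts in naive aged samples but 14.96% to 34.0% in HDM samples. With this share in the totals, the median gene had a log2 fold change of -0.23 between HDM and naive aged, against -0.02 after rescaling by the median of ratios, and rescaled fold changes are therefore given beside the deposited ones for the classes and for the 6 genes shown in full, while values by role are on the deposited scale. The labels give no sex, although the study used mice of both sexes. Xist, the RNA of the inactive X chromosome, was above the Y-linked gene Ddx3y in 5 of 5 naive adult, 2 of 5 naive aged, 2 of 7 HDM and 4 of 7 HDM + Dex samples.

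The most abundant member per length of exon was Mki67, which encodes the Ki-67 protein that coats mitotic chromosomes, at 11.7 CPM per kb in naive aged lungs. It was followed by Pcna, the sliding clamp of the replication fork, at 7.42 CPM per kb, and by Mcm3, Mcm6 and Mcm4 of the MCM2-7 replicative helicase at 6.76, 6.40 and 6.14 CPM per kb. The lowest members on this scale were Cdc6, which loads the helicase at origins, at 0.380 CPM per kb and Kif2c, a microtubule-depolymerizing kinesin of the kinetochore, at 0.383 CPM per kb. The median of the group means, in CPM without regard to length, was 8.22 for the replication genes and 4.05 for the mitosis genes in naive aged lungs. All 45 members passed the filter of a mean of 1 CPM over the 24 samples.

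Averaged over its genes, the replication class had a level of 3.22 ± 0.190 (mean of log2(CPM + 1) over the genes, SD over samples, n = 5) in naive aged lungs, 3.51 ± 0.462 (n = 7) in HDM lungs, 3.27 ± 0.526 (n = 7) in HDM + Dex lungs and 2.82 ± 0.313 (n = 5) in naive adult lungs. The mitosis class had 2.64 ± 0.369 in naive aged, 3.13 ± 0.586 in HDM, 2.65 ± 0.844 in HDM + Dex and 2.15 ± 0.504 in naive adult lungs. Both classes thus had their highest mean under HDM and their lowest in naive adults, and the groups overlapped. The samples of one group lay further apart for mitosis genes than for replication genes in each of the 4 groups.

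**Figure D1:**
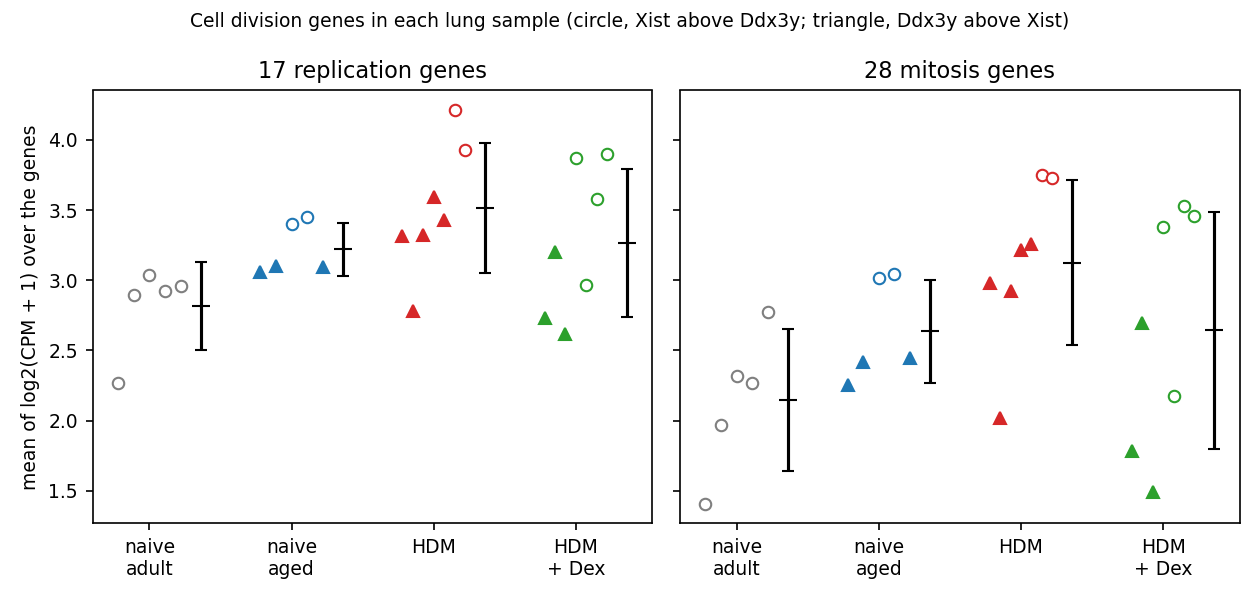
Each point is 1 lung sample, and the vertical axis gives the mean of log2(CPM + 1) over the 17 replication genes (left) or the 28 mitosis genes (right). Open circles are samples with Xist above Ddx3y and filled triangles samples with Ddx3y above Xist, and bars give the mean and SD of each group. Within each aged group most circles lie above the triangles, and HDM replicate 2 lies below the other 6 HDM samples.

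In the HDM group, replicates 6 and 7 were the 2 highest samples in 35 of the 45 members, and replicate 2 was the lowest in 38. In the naive aged group, replicates 3 and 4 were the 2 highest in 29 of the 45. These 4 samples were the ones with Xist above Ddx3y in their groups. In the HDM group they also differed in 7SL, which took 15.4% and 14.96% of the counts in replicates 6 and 7 and 27.1% to 34.0% in the other 5. After rescaling, which takes out the part of the gap that comes from the totals, replicates 6 and 7 of the HDM group were the 2 highest in 16 of 45 members and replicates 3 and 4 of the naive aged group in 28 of 45. In the HDM + Dex group the lowest sample was replicate 3 in 30 members and replicate 1 in 11, both with Ddx3y above Xist.

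**Figure D2:**
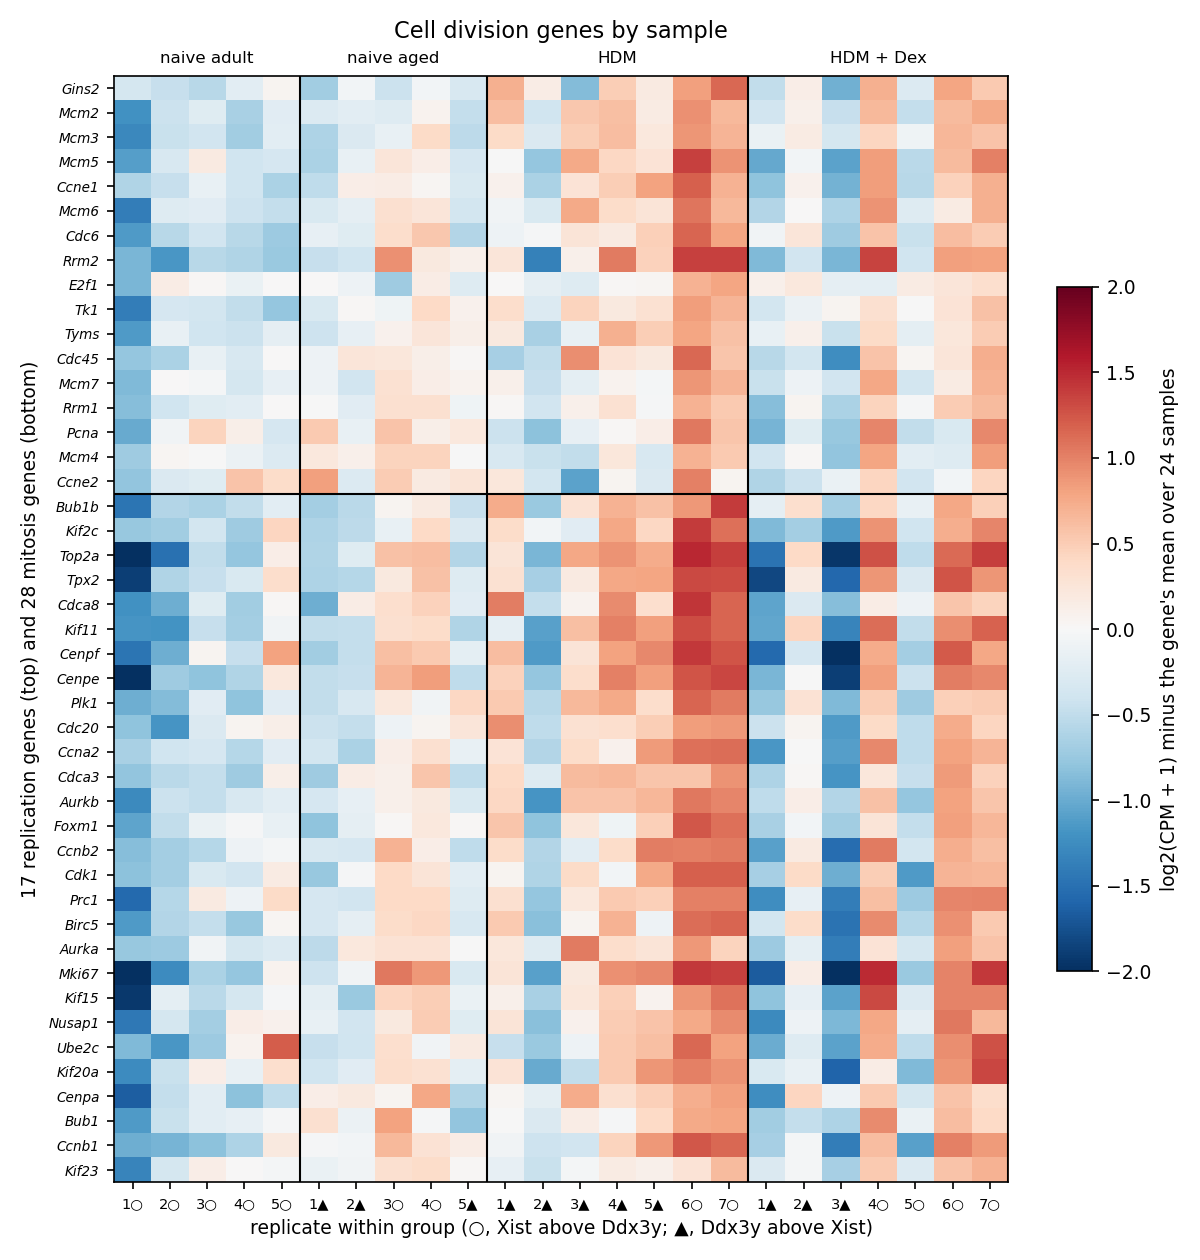
Rows are the 45 genes, with replication genes above the line and mitosis genes below it, and columns are the 24 samples by group and replicate number. Colours give log2(CPM + 1) minus the mean of the gene over the 24 samples, and values beyond 2 in either direction are drawn at 2. Columns are mostly red (HDM replicates 6 and 7, HDM + Dex replicates 4, 6 and 7) or blue (naive adult replicate 1, HDM replicate 2, HDM + Dex replicates 1 and 3), and most members move together from sample to sample.

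The comparison of HDM with naive aged lungs asks what the allergen changed in the aged lung. Of the 45 members, 3 were called higher and 0 lower by limma with Benjamini-Hochberg adjustment over 17744 genes (adjusted p under 0.05), which were Mcm2, Mcm3 and Bub1b. Over all genes tested, 4.04% were called higher and 21.2% lower. In 41 of the 45 members the log2 fold change was above 0, with a median of 0.43, beside a median of -0.23 over all genes, and 7 members had an unadjusted p under 0.05, as had 39.2% of all genes tested in either direction. No member had groups without overlap, whereas 1.03% of all genes tested were higher in every HDM sample than in any naive aged sample.

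Mcm2, a subunit of the ring-shaped helicase that unwinds DNA at the fork (chr6:88883474-88898780, minus strand, GRCm38), was at 15.75, 16.45, 16.003, 20.36 and 13.55 CPM in the 5 naive aged samples. In HDM samples it ranged from 14.3 to 37.0 CPM with a median of 29.8. The HDM sample was the higher in 31 of 35 pairs of an HDM and a naive aged sample. The log2 fold change was 0.67 ± 0.238 (SE), with an adjusted p of 0.0426 (limma), and 0.90 after rescaling.

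Mcm3, another subunit of the same ring (chr1:20802968-20820312, minus strand), was at 18.6, 23.8, 26.3, 38.2 and 19.9 CPM in naive aged samples and at 23.8 to 54.5 CPM with a median of 41.3 in HDM samples. Here too the HDM sample was higher in 31 of 35 pairs. The log2 fold change was 0.66 ± 0.210 (SE) with an adjusted p of 0.0246 (limma), the lowest among the members, and 0.90 after rescaling.

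Bub1b, which encodes the BubR1 kinase-like protein of the spindle assembly checkpoint (chr2:118598211-118641591, plus strand), was at 7.56, 8.47, 13.2, 14.6 and 8.95 CPM in naive aged samples. It ranged from 7.16 to 35.2 CPM with a median of 21.1 in HDM samples, and the HDM sample was higher in 30 of 35 pairs. The log2 fold change was 0.83 ± 0.285 (SE) with an adjusted p of 0.0365 (limma), and 1.06 after rescaling. These 3 genes had HDM medians above the highest naive aged sample, as had members that were not called. Among those were Top2a (61.7 against 55.5 CPM) and Kif11 (14.9 against 10.7 CPM). In each of the 3 genes HDM replicate 2 lay within the naive aged range or below it, and it was the lowest HDM sample in 38 of the 45 members.

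The 2 genes most used as proliferation markers were not called. Mki67 (chr7:135689784-135716361, minus strand) was at 68.1, 87.2, 191.1, 168.0 and 74.2 CPM in naive aged samples and at 42.7 to 245.5 CPM with a median of 174.0 in HDM samples. On the log2 scale the change of 0.35 had a 95% interval from -0.79 to 1.49 and an adjusted p of 0.660 (limma), and after rescaling it was 0.60 with an adjusted p of 0.432. Top2a, the topoisomerase that untangles sister chromatids (chr11:98992943-99024189, minus strand), was at 23.4, 30.02, 54.0, 55.5 and 23.6 CPM in naive aged samples and at 18.5 to 104.0 CPM with a median of 61.7 in HDM samples. Its log2 fold change was 0.71 with an interval from -0.35 to 1.77 and an adjusted p of 0.311 (limma), and after rescaling 0.95 with an adjusted p of 0.160. The SEs of the log2 fold changes of Mki67 and Top2a were 0.551 and 0.511, beside 0.238 and 0.210 for Mcm2 and Mcm3, and in both marker genes naive aged replicates 3 and 4 lay apart above the other 3.

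Pcna (chr2:132249162-132253314, minus strand) was at 21.2, 13.0, 22.1, 15.8 and 16.99 CPM in naive aged samples and at 7.73 to 31.2 CPM with a median of 14.7 in HDM samples. Its log2 fold change was -0.20 as deposited, with an interval from -0.88 to 0.47 and an adjusted p of 0.664 (limma), and 0.027 after rescaling. With the 7SL share as a covariate it was 0.78 and passed the test, with an adjusted p of 0.0419 (limma). That share was 9.92% to 18.1% in naive aged and 14.96% to 34.0% in HDM samples, so this fit cannot fully separate it from HDM. The HDM sample was the higher in 12 of 35 pairs.

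**Figure D3:**
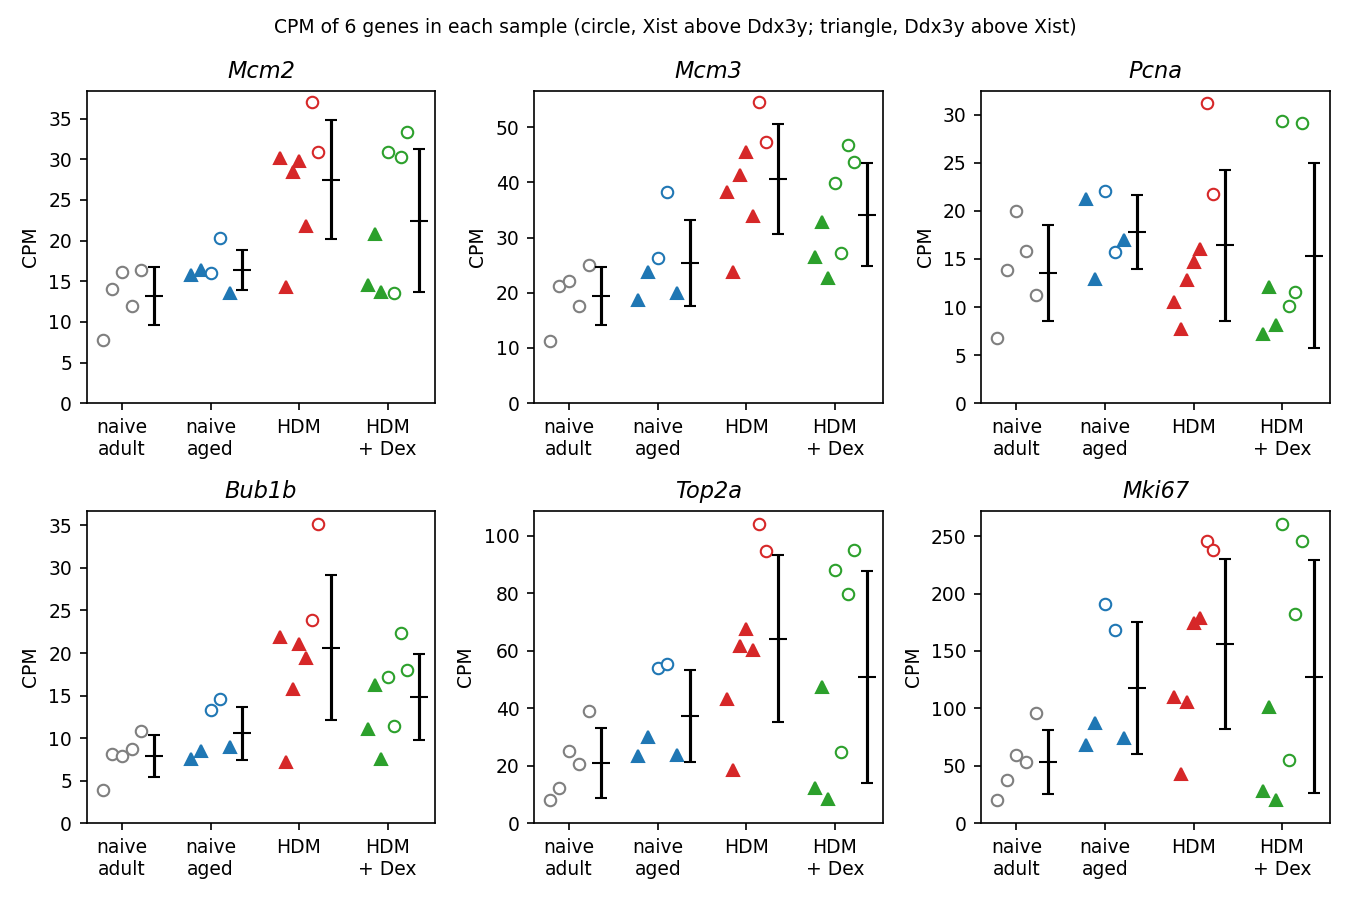
Each panel gives the CPM of 1 gene in every sample from 0 upward, with circles for samples with Xist above Ddx3y, triangles for samples with Ddx3y above Xist, and bars for the mean and SD. In Mcm2, Mcm3, Bub1b, Mki67 and Top2a 6 of the 7 HDM samples lie above the naive aged median, and the naive aged samples of Mki67 and Top2a are more widely spread.

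By role, the 9 genes that license and fire origins, namely Cdc6, Mcm2 to Mcm7, Cdc45 and Gins2, had log2 fold changes from -0.26 (Mcm4) to 0.69 (Gins2), with a median of 0.45. Within the helicase ring itself the 6 subunits ranged from -0.26 for Mcm4 and 0.15 for Mcm7 to 0.66 for Mcm3 and 0.67 for Mcm2. The regulators of S phase entry were at 0.52 for cyclin E1 (Ccne1), 0.34 for E2f1 and -0.35 for cyclin E2 (Ccne2). On this deposited scale the median over all genes was -0.23. Of the 17 replication genes 14 were above 0 as deposited and 15 after rescaling. The 4 genes of deoxynucleotide supply, Rrm1 and Rrm2 (ribonucleotide reductase), Tyms (thymidylate synthase) and Tk1 (thymidine kinase), lay between 0.12 and 0.39. None of these genes other than Mcm2 and Mcm3 passed the test.

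Among mitosis genes, the 5 spindle genes Kif11, Kif15, Kif2c, Tpx2 and Nusap1 had a median of 0.69 and the 5 genes of the centromere, kinetochore and checkpoint one of 0.63. The cyclins, kinases and transcription factor of mitotic entry (Cdk1, Ccna2, Ccnb1, Ccnb2, Plk1, Aurka and Foxm1) lay between 0.21 for Ccnb1 and 0.61 for Plk1. The chromosomal passenger genes Aurkb, Birc5 and Cdca8 lay between 0.38 and 0.69, and the mitotic exit genes Cdc20, Ube2c and Cdca3 between 0.34 and 0.60. The cytokinesis genes Kif20a, Kif23 and Prc1 had the lowest median of the mitosis roles, at 0.33, with Kif23, a motor of the central spindle, at -0.03. Bub1b was the 1 mitosis gene called.

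As classes, replication genes had a median log2 fold change of 0.34 with 14 of 17 above 0, and mitosis genes one of 0.52 with 27 of 28 above 0. After rescaling these medians were 0.57 and 0.68. The replication genes held 2 of the 3 calls as deposited and 6 of 10 after rescaling and had the smaller median on both scales. The median SD within the HDM group was 0.495 for replication genes and 0.668 for mitosis genes, beside 0.338 over all genes tested.

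**Figure D4:**
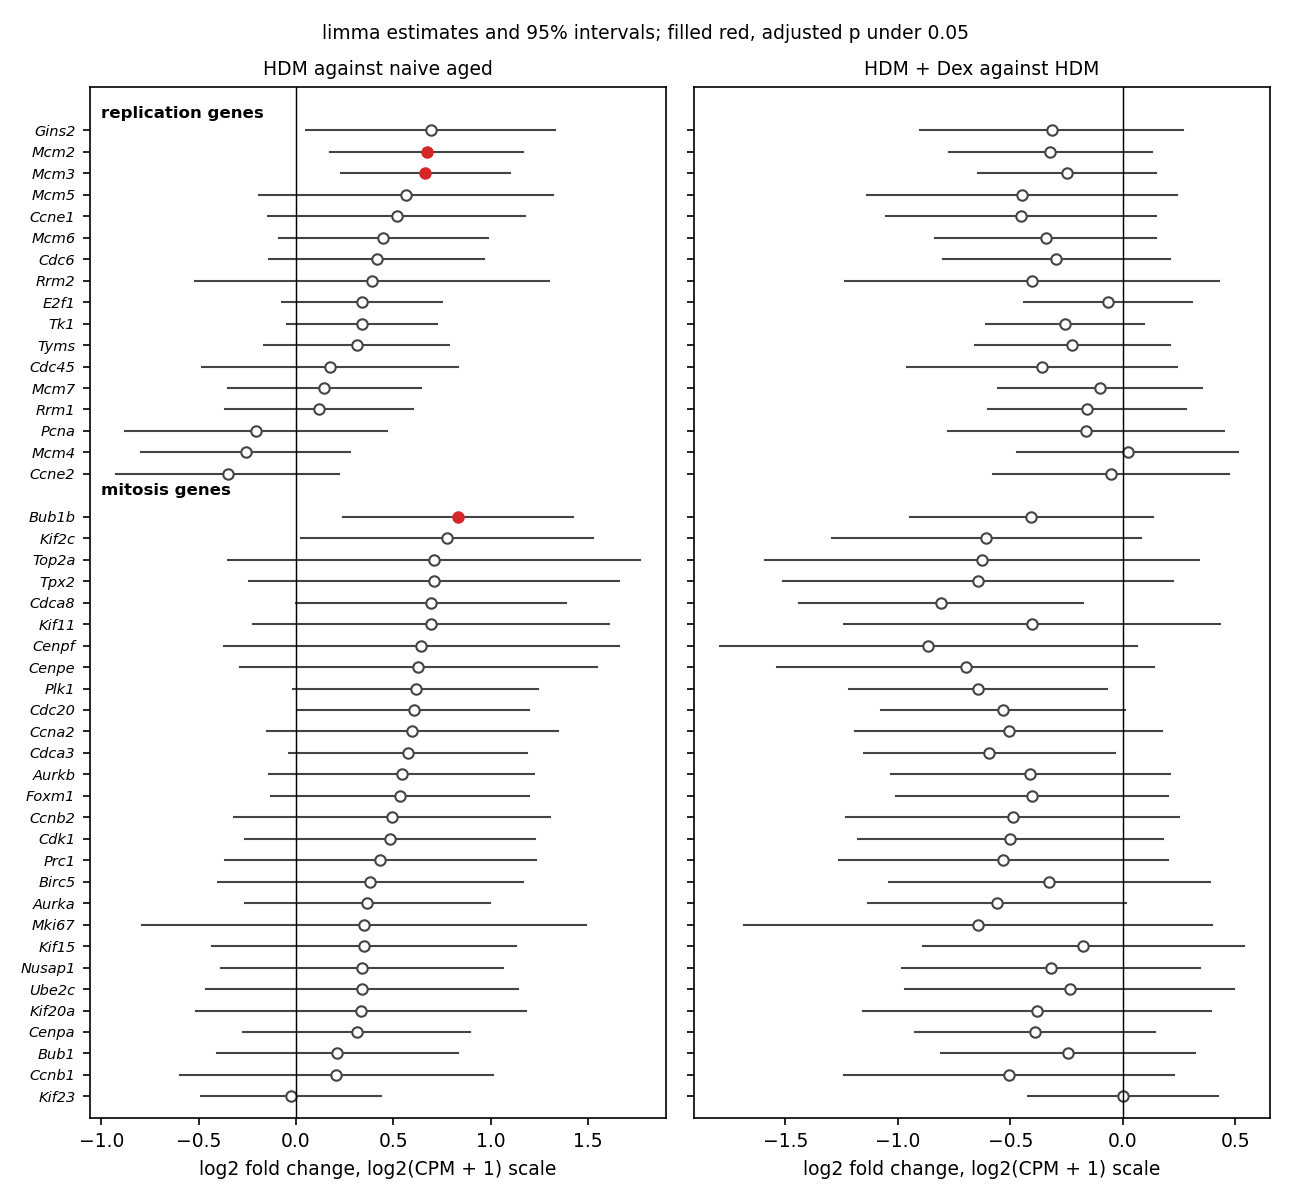
Points are log2 fold changes on the log2(CPM + 1) scale from limma and lines their 95% intervals, for HDM against naive aged (left) and HDM + Dex against HDM (right); the HDM samples enter both panels. Filled red points have an adjusted p under 0.05, which were Mcm2, Mcm3 and Bub1b on the left and no gene on the right. Most points lie right of 0 on the left and left of 0 on the right.

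The number of calls moved with the scale and with sex. After median-of-ratios rescaling 10 members were called, all higher, beside 10.7% of all genes tested. These were Mcm3, Mcm2, Bub1b, Tk1, Gins2, Mcm6, E2f1, Cdc20, Kif2c and Cdca8. With the Xist and Ddx3y class as a covariate 7 were called higher on the deposited scale, beside 5.39% of all genes, and with both changes 22 were called higher, beside 11.4% of all genes. The last combination was chosen after the data had been seen.

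Compared within samples of like Xist and Ddx3y, the mean over the 28 mitosis genes was 0.71 higher (log2 scale) in the 2 HDM samples than in the 2 naive aged samples with Xist above Ddx3y, and 28 of 28 genes were higher. Among samples with Ddx3y above Xist it was 0.51 higher in 5 HDM than in 3 naive aged samples, with 27 of 28 genes higher. The replication mean was 0.64 and 0.21 higher in these strata, with 17 and 13 of 17 genes higher. After rescaling the mitosis mean was 0.69 and 0.78 higher and the replication mean 0.63 and 0.49 higher. Mki67 averaged 241.5 CPM in the 2 HDM and 179.5 CPM in the 2 naive aged samples with Xist above Ddx3y, and 122.2 CPM in the 5 HDM and 76.5 CPM in the 3 naive aged samples with Ddx3y above Xist. In both strata the HDM mean was higher, and within the naive aged group the gap between strata was larger than either of these differences. These values within strata were not tested.

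The 3 calls also depended on single samples. Without HDM replicate 2 the count rose to 7, with Bub1b, Mcm3, Mcm2, Aurkb, Plk1, Cdc20 and Cdca8, beside 926 of 17744 genes called higher. Without naive aged replicate 1 or 5 it was 0, without naive aged replicate 2 or HDM replicate 1, 4, 6 or 7 it was 1 (Mcm3 in each), and without naive aged replicate 3 or HDM replicate 5 it was 2. The fits with 0 to 2 members called had 473 to 696 of all genes higher. The fewest were without naive aged replicate 1 and the most without HDM replicate 6.

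HDM replicate 2 stood apart in more than division genes. The macrophage markers (Adgre1, Cd68, C1qa, C1qb and Mrc1) summed to 112 CPM in it and to 317 to 591 CPM in the other 6 HDM samples, beside 128 to 165 CPM in naive aged samples. Over the group comparison 3 of these 5 were called higher (limma). The alveolar macrophage markers summed to 390 CPM in replicate 2 and to 653 to 2776 CPM in the others, with 1 of 5 called higher. The heart muscle markers, from the muscle sleeve of the pulmonary veins, summed to 403 CPM in replicate 2 and to 20.3 to 168 CPM in the others, beside 534 to 984 CPM in naive aged lungs, with 5 of 5 called lower. The part of these cells in the division genes' values was not tested. At the other end of the HDM group, replicates 6 and 7 had the highest sums of T cell, germinal centre B cell, endothelial, club cell and ciliated cell markers. They had the lowest sums of plasma cell markers, at 284 and 276 CPM against 297 to 780 CPM in the others. Their alveolar macrophage sums of 746 and 653 CPM lay above replicate 2 but below the remaining HDM samples, at 1308 to 2776 CPM. Their macrophage sums were 317 and 368 CPM, within the range of the group. These sums are on the deposited scale. There 7SL took 15.4% and 14.96% of the counts in replicates 6 and 7 and 27.1% to 34.0% in the other HDM samples.

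Markers of other cells moved as well between HDM and naive aged lungs. Here and for the markers above, calls and sums are on the deposited scale, where 21.2% of all genes tested were called lower and 4.04% higher. The club cell (3 of 3) and ciliated cell markers (4 of 4) were called lower, and club cell markers summed to 279 to 2728 CPM under HDM against 4645 to 6642 CPM. The T cell markers were not called (0 of 7) and summed to 41.1 to 122 CPM against 27.4 to 92.8 CPM. The B cell (0 of 5), germinal centre B cell (0 of 2 tested), plasma cell (0 of 4 tested), erythroid (0 of 5), type 2 alveolar (0 of 5) and basal cell markers (0 of 1 tested) were not called. Of the rest, 2 of 4 neutrophil, 2 of 4 type 1 alveolar and 2 of 4 endothelial markers were lower, 1 of 2 tested eosinophil markers was higher, and of 4 fibroblast markers 2 were higher (Col1a1 and Col1a2) and 2 lower (Pdgfra and Dcn). The part of these cells in the result was not tested.

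The comparison of HDM + Dex with HDM lungs, which shares the HDM samples, asks what the steroid changed in the challenged aged lung. No member was called (0 of 45 by limma, 3 with an unadjusted p under 0.05), while of all genes tested 0.214% were called lower and 13.5% had an unadjusted p under 0.05. The log2 fold change was below 0 in 43 of 45 members with a median of -0.40, beside 0.03 over all genes. The median was -0.26 for replication genes and -0.50 for mitosis genes, and -0.29 and -0.54 after rescaling.

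Mki67 ranged from 20.6 to 260.3 CPM with a median of 101.3 in HDM + Dex samples, a wider range than in HDM samples at either end. At a log2 fold change of -0.64 it had a 95% interval from -1.68 to 0.40 and an adjusted p of 0.644 (limma). Top2a ranged from 8.57 to 95.1 CPM with a median of 47.3, at a log2 fold change of -0.63 and an adjusted p of 0.620 (limma). Mcm2 ranged from 13.6 to 33.3 CPM with a median of 20.9, at -0.32 and an adjusted p of 0.573 (limma). Pcna ranged from 7.17 to 29.4 CPM with a median of 11.5, at -0.16 and an adjusted p of 0.875 (limma). After rescaling the log2 fold changes were -0.68 for Mki67, -0.66 for Top2a, -0.35 for Mcm2 and -0.20 for Pcna, and none was called. In each of these 4 genes the HDM + Dex samples fell into high samples (replicates 4 and 7, and for all but Pcna replicate 6) and low ones (replicates 1, 3 and 5), with replicate 2 between them.

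The member with the lowest adjusted p, singled out after the values were seen, was Cdca8, which encodes borealin of the chromosomal passenger complex. It was at 1.61 to 8.74 CPM with a median of 6.00 in HDM samples and at 0.742 to 4.31 CPM with a median of 2.36 in HDM + Dex samples. Its log2 fold change was -0.81 ± 0.305 (SE) with an adjusted p of 0.214 (limma). With sex as a covariate 2 members, Cdca8 and Kif2c, were called lower, beside 0.924% of all genes tested. The HDM + Dex group held 4 samples with Xist above Ddx3y and the HDM group 2, and within strata the mitosis mean was 0.60 lower in the 4 than in the 2 such samples and 0.89 lower in 3 HDM + Dex than in 5 HDM samples with Ddx3y above Xist. The replication mean was 0.49 and 0.44 lower in these strata. After rescaling these values were 0.48 and 0.91 lower for mitosis and 0.37 and 0.44 lower for replication.

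HDM + Dex lungs were also set against naive aged lungs, with both groups shared with the comparisons above. Here 0 of 45 members were called (limma, 0 also at an unadjusted p under 0.05), beside 1.89% of all genes called in either direction and 21.2% with an unadjusted p under 0.05. The median log2 fold change was 0.08 for replication genes, with 11 of 17 above 0, and -0.01 for mitosis genes, with 14 of 28 above 0. After rescaling the medians were 0.25 and 0.14. The 3 genes called under HDM stood at 0.35 (Mcm2, interval -0.15 to 0.84), 0.42 (Mcm3, -0.02 to 0.85) and 0.43 (Bub1b, -0.17 to 1.02), with adjusted p of 0.376, 0.250 and 0.368 (limma). Mki67 stood at -0.29, Top2a at 0.08 and Pcna at -0.37, each with an interval over 1 unit wide that included 0. After rescaling Mcm2 stood at 0.55, Mcm3 at 0.62, Bub1b at 0.62, Mki67 at -0.080, Top2a at 0.29 and Pcna at -0.17, and none was called.

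The difference between the class means of a sample, mitosis minus replication, had a median of -0.65 in naive aged, -0.38 in HDM, -0.51 in HDM + Dex and -0.72 in naive adult lungs. It ranged from -0.80 to -0.39, from -0.76 to -0.17, from -1.12 to -0.04 and from -0.93 to -0.19 in these groups, which overlapped. In naive aged lungs the samples with Xist above Ddx3y had the values nearest 0 (-0.39 and -0.40). Since mitosis genes are the lower in CPM, the constant of 1 in log2(CPM + 1) compresses them more, so that the difference also moves with the level.

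The naive aged and naive adult lungs compare ages without allergen, although the groups also differed in the balance of Xist and Ddx3y, with Xist above Ddx3y in 5 of 5 naive adult samples against 2 of 5 naive aged. No member was called (0 of 45 by limma, 13 with an unadjusted p under 0.05), while of all genes tested 0.592% were called higher and 11.2% had an unadjusted p under 0.05. The log2 fold change was above 0 in 43 of 45 members, with a median of 0.42 as deposited and 0.27 after rescaling, beside 0.19 and 0.02 over all genes. The medians were 0.40 for replication and 0.43 for mitosis genes, and 0.25 and 0.31 after rescaling.

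Mki67 was at 20.3, 37.5, 59.0, 52.9 and 95.7 CPM in naive adult samples, and the aged sample was higher in 22 of 25 pairs. Its log2 fold change of 1.17 ± 0.364 (SE) was the largest among the members, with an adjusted p of 0.197 (limma). It passed the test with sex as a covariate (1.91, adjusted p 0.0403), with rescaling and sex together (1.68, adjusted p 0.0248) and with sample weights (1.08, adjusted p 0.0395, limma). The sex term of the first pair of fits rests on the 2 and 3 aged samples of the strata, since no naive adult sample had Ddx3y above Xist. Top2a was at 7.92, 12.1, 25.2, 20.7 and 39.2 CPM, with a log2 fold change of 0.89 ± 0.359 and an adjusted p of 0.354 (limma). Mcm2 was at 7.75, 14.03, 16.1, 11.9 and 16.3 CPM, with 0.32 ± 0.211 and an adjusted p of 0.554, and Pcna at 6.74, 13.8, 20.0, 15.8 and 11.3 CPM, with 0.42 ± 0.248 and an adjusted p of 0.516 (limma). Rrm2 and Tk1, singled out after the values were seen, were higher in every naive aged sample than in any naive adult sample, as were 2.91% of all genes tested. Rrm2 was at 1.28 to 2.46 CPM in adults and 2.72 to 8.65 CPM in the aged, and Tk1 at 4.04 to 9.49 CPM against 9.64 to 16.4 CPM. After rescaling Tk1 alone of the members had groups without overlap, as had 1.94% of all genes, while Rrm2 overlapped. The rescaled log2 fold changes of Mki67, Top2a, Mcm2 and Pcna were 0.98, 0.70, 0.14 and 0.24, and none was called.

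The 2 aged samples with Xist above Ddx3y had a mitosis mean 0.88 above that of the 5 adults and a replication mean 0.61 above it, and 0.72 and 0.42 after rescaling. Naive adult replicate 1, in which 7SL took 42.0% of the counts against 13.6% to 17.2% in the other 4, was the lowest adult sample in 39 of 45 members as deposited and in 17 after rescaling.

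Further genes of the same processes were taken from lists that hold 40 other replication genes and 59 other mitosis genes. In HDM against naive aged lungs, 1 of 38 tested replication genes was called higher and 0 lower, namely Pold1, the catalytic subunit of DNA polymerase delta (0.45 ± 0.158, adjusted p 0.0411, limma), with 30 of 38 above 0 and a median of 0.20. Of 50 tested mitosis genes, 3 were called higher and 1 lower, with 45 above 0 and a median of 0.35, beside 4.04% higher and 21.2% lower over all genes. Those higher were Kif18b, a kinesin of astral microtubules (0.99 ± 0.322), Espl1, the separase that cleaves cohesin (0.77 ± 0.257), and Incenp, the scaffold of the passenger complex (0.75 ± 0.210), with adjusted p of 0.0293, 0.0322 and 0.0132 (limma). Pttg1, the securin that holds separase inactive, was lower at -0.54 ± 0.166 (adjusted p 0.0224, limma) and at -0.31 after rescaling, where its adjusted p was 0.127. Espl1 was at 4.45, 3.85, 4.45, 4.83 and 3.66 CPM in naive aged samples and at 4.49 to 13.6 CPM in HDM samples, and Pttg1 at 13.4, 14.8, 11.8, 12.7 and 13.4 against 4.78 to 13.1 CPM. Separase and its inhibitor thus lay on different sides of 0 on both scales. After rescaling 8 of the 38 and 8 of the 50 were called, all higher, beside 10.7% of all genes.

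In the other comparisons no further gene was called by limma. With HDM + Dex against HDM, 0 of 38 and 5 of 50 had an unadjusted p under 0.05 and the medians were -0.11 and -0.31. With HDM + Dex against naive aged, 1 of 38 and 1 of 50 had one and the medians were 0.03 and 0.05. With naive aged against naive adult, 9 of 38 and 8 of 50 had one and the medians were 0.35 and 0.40. The shares over all genes in these 3 comparisons were 13.5%, 21.2% and 11.2%.

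Upstream of both classes stand the G1 cyclins, their kinases and the activating E2F proteins. Of 8 such genes 1 was called in HDM against naive aged lungs on the deposited scale, beside 4.04% of all genes called higher and 21.2% lower. This gene was E2f3, an activator of S phase genes, at 0.76 ± 0.168 with an adjusted p of 0.00305 (limma). It was at 7.77, 5.11, 9.04, 6.03 and 4.90 CPM in naive aged samples and at 7.03 to 13.6 CPM with a median of 12.7 in HDM samples. In HDM + Dex samples it was at 6.76 to 8.83 CPM with a median of 7.40, a log2 fold change of -0.55 ± 0.153 against HDM with an adjusted p of 0.0846 (limma). Its relative E2f2 stood at 0.01 and cyclin D1 (Ccnd1) at -0.34 in HDM against naive aged lungs, without passing the test.

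Among 13 brakes on the cycle, 12 were tested and 4 were called lower in HDM against naive aged lungs, beside 21.2% of all genes called lower. These were the CDK inhibitors Cdkn1c (p57), Cdkn1b (p27) and Cdkn1a (p21) and the retinoblastoma gene Rb1. Cdkn1c was at 29.4, 24.2, 31.9, 16.2 and 27.6 CPM in naive aged samples and at 5.27 to 14.5 CPM with a median of 8.04 in HDM samples, without overlap. On this deposited scale 1364 of 17744 genes tested were likewise lower in every HDM sample than in any naive aged sample. The log2 fold change of Cdkn1c was -1.46 ± 0.247 with an adjusted p of 0.000629 (limma). Cdkn1b stood at -0.68 ± 0.185 (adjusted p 0.0114) and Cdkn1a at -0.65 ± 0.189 (adjusted p 0.0157, limma). Rb1 stood at -0.67 ± 0.244 with an adjusted p of 0.0480 (limma). After rescaling Cdkn1c and Cdkn1b were called lower, Cdkn1a (-0.41, adjusted p 0.164) and Rb1 (-0.43, adjusted p 0.0873) were not, and 3 other brakes, Cdkn2c, Cdkn2d and Fzr1, were called higher, beside 11.8% of all genes lower and 10.7% higher.

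With HDM + Dex against naive aged, 2 of 12 brakes were called lower, beside 1.44% of all genes, Cdkn1c at -1.14 ± 0.247 (adjusted p 0.0249) and Cdkn1a at -0.90 ± 0.189 (adjusted p 0.0202, limma). After rescaling Cdkn1c was still called, while Cdkn1a had -0.69 with an adjusted p of 0.104. Cdkn1a was at 38.1, 45.2, 80.3, 95.9 and 72.2 CPM in naive aged samples, 29.5 to 50.7 CPM in HDM samples and 29.2 to 39.8 CPM in HDM + Dex samples. With HDM + Dex against HDM and with naive aged against naive adult 0 of 12 were called (limma; 0 and 2 with an unadjusted p under 0.05), and Cdkn1a in the last stood at 1.03 ± 0.321 with an adjusted p of 0.198. Cdkn2a, the gene of p16 and p19ARF, had a mean below the filter and was not tested in the main fit. It was at 0.350 to 0.495 CPM in naive aged and 0.912 to 2.09 CPM in HDM samples, without overlap. Of all genes tested, a set that leaves out Cdkn2a, 1.03% were higher in every HDM sample than in any naive aged sample. The share among genes below the filter was not counted. The naive aged values of Cdkn2a rested on few reads, since 3 reads were worth up to 0.210 CPM in that group.

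The promoters of the members were read for the letters that the regulators of each class bind. RefSeq start sites on GRCm38.p6 gave 39 windows of 300 bases, from 250 before to 50 after the start, for 37 of the 45 members. The CHR motif (cell cycle genes homology region, TTTGAA on either strand) is bound by MuvB complexes and was found in 19 of 24 windows of mitosis genes (79.2%) and in 2 of 15 windows of replication genes (13.3%). The share was 17.9% over all 32851 windows read. The CCAAT box, bound by NF-Y, was found in 20 of 24 and 10 of 15 windows, beside 37.4% of all windows. The E2F letters TTTCCCGC, TTTCGCGC, TTTGCCGC or TTTGGCGC, on either strand, were found in 5 of 15 windows of replication genes and 2 of 24 windows of mitosis genes, beside 2.27% of all windows.

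The other genes of each process gave the same order, with the CHR motif in 31 of 56 windows of other mitosis genes (55.4%) and 7 of 39 windows of other replication genes (17.9%), and E2F letters in 4 of 56 and 14 of 39. Mcm7 and Prc1 entered with 2 windows each, E2F letters can overlap one another on opposite strands, and a CHR motif can share bases with a CCAAT box. A match is a description of the sequence and not a bound site.

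**Figure D5:**
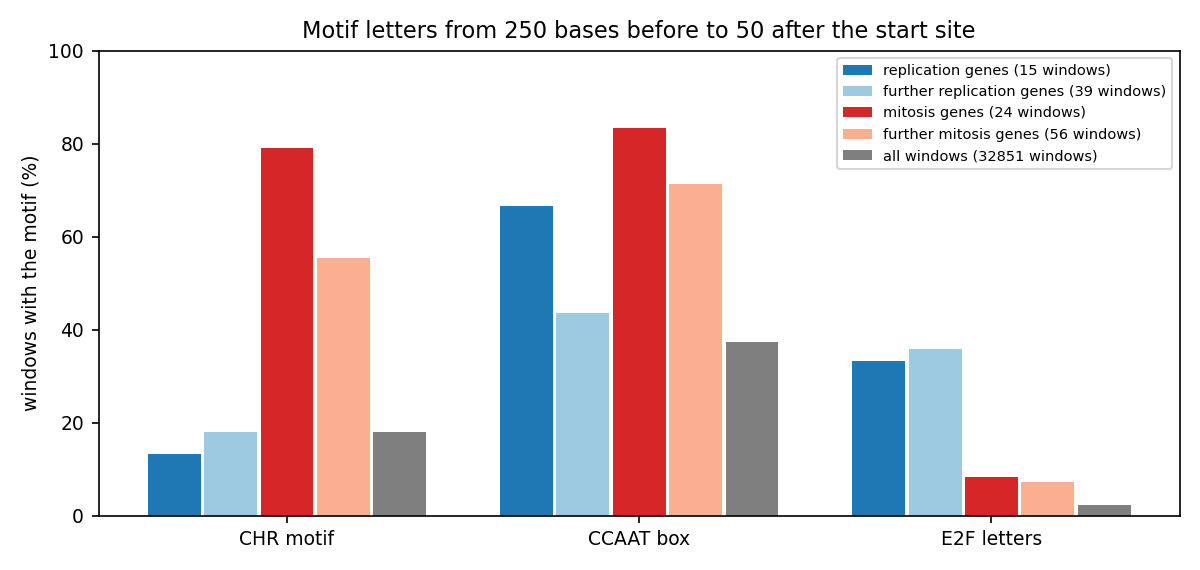
Bars give the percent of promoter windows that hold each motif, for the 15 windows of replication and 24 of mitosis genes, for the windows of further genes of both processes, and for all windows. Mitosis genes are highest for the CHR motif (79.2%, against 17.9% of all windows) and replication genes and their further genes for E2F letters (33.3% and 35.9%, against 2.27%).

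The 150 bases before the start are shown for the 3 genes called under HDM (Mcm2, Mcm3 and Bub1b) and for 4 genes that hold the motifs of their class (Mcm6 for E2F letters, Cdk1, Cdc20 and Top2a for the CHR motif). Each runs 5′ to 3′ on the strand of the gene, with CHR, CCAAT (or its reverse complement ATTGG) and E2F letters in capitals.
Mcm2, chr6:88898781-88898930, minus strand: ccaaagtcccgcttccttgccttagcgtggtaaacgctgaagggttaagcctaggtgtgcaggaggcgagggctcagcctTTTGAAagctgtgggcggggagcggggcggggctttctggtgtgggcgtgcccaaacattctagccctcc
Mcm3, chr1:20820313-20820462, minus strand: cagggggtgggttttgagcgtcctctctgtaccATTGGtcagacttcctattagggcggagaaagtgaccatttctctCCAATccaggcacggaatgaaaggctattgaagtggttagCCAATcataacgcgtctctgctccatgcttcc
Bub1b, chr2:118598061-118598210, plus strand: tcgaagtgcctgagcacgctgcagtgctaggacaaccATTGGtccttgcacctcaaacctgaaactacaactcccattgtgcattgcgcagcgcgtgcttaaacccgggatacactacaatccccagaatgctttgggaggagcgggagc
Mcm6, chr1:128359706-128359855, minus strand: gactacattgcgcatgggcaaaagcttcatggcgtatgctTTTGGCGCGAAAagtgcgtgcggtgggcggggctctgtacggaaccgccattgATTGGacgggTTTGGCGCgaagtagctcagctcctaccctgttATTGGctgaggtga
Cdk1, chr10:69352913-69353062, minus strand: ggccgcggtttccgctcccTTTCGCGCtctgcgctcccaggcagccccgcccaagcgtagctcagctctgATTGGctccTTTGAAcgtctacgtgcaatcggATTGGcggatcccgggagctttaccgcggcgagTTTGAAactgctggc
Cdc20, chr4:118437344-118437493, minus strand: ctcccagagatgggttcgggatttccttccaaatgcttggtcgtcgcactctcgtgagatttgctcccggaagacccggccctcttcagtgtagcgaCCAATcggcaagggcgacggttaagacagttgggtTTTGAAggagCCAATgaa
Top2a, chr11:99024190-99024339, minus strand: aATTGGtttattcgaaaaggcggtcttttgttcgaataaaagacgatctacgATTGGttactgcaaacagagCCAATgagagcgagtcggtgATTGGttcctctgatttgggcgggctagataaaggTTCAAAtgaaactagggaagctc

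Mcm6 holds E2F letters 110, 106 and 47 bases before its start, the first pair overlapping on opposite strands, and ATTGG 57 and 14 bases before it. Cdk1, the kinase of mitotic entry, holds both kinds of letters, with E2F letters 131 bases and CHR letters 71 and 15 bases before its start. Cdc20, which activates the anaphase-promoting complex, holds the CHR motif 18 bases and CCAAT 53 and 8 bases before its start, and Top2a the CHR motif 23 bases before its start with 4 CCAAT boxes in either direction further upstream in the stretch shown. Mcm2 is 1 of the 2 replication windows with CHR letters, 70 bases before its start, and has none of the E2F letters searched. Bub1b has CHR letters 41 bases after its start and Mcm3 has E2F letters 20 and 39 bases after its start, outside the stretches shown. The CCAAT box was the 1 motif present in the windows of all 3 genes called under HDM, in Mcm2 175 bases before the start. It does not set these genes apart, since 10 of 15 windows of replication genes and 20 of 24 of mitosis genes held it.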

How the data were processed

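Gene-level RNA-Seq values of 24 mouse lung samples came as 1 table of CPM, counts scaled to a common library total, which the authors made from reads aligned with STAR and deposited with a constant of 0.0001 added. Their processing notes also name FastQC and mm9, whereas the coordinates in the table match GRCm38 (GENCODE M21). Libraries were made with a stranded mRNA kit and read in pairs. No count model was used, because small values gave whole reads, within 0.05 of a read, in no more than 80.8% to 85.5% of cases per sample. Depth was estimated from that spacing, and read limits cover counting error only.

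Values were tested as log2(CPM + 1) with limma 3.58.1 (R 4.3.3; empirical Bayes with trend) for genes averaging 1 CPM or more over the samples, two-sided, with Benjamini-Hochberg adjustment over all 17744 genes and a threshold of 0.05. A fold change on this scale understates the change of low genes. The comparisons between aged groups came from 1 fit of the 19 aged samples and share groups, and aged against adult from the 10 naive samples. Intervals are 95%, and ± is the SD of levels or the SE of fold changes. Figures were drawn with matplotlib 3.10.9.

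Alternatives were median-of-ratios and quantile scaling, totals without 7SL and ribosomal RNA genes, 7SL or sex (Xist against Ddx3y) as a covariate, sample weights, a replicate block, other filters and pseudocounts, and leaving out each sample. The members and gene lists were chosen with earlier results of these data known. Named were members past the threshold with the largest changes (up to 10 per comparison), Mki67, Top2a, Mcm2 and Pcna, and up to 3 genes called per further list (the 4 brakes called are all given); other genes were chosen after their values were seen. Promoters came from the RefSeq annotation of GRCm38.p6.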

Additional observations from a re-analysis of the deposited data

Results flagged for a closer look

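The mean of log2(CPM + 1) over the 17 replication genes was 2.27 in naive adult replicate 1 and 2.90 or more in the other 4 naive adult samples, a gap that was large against the range of the group. After rescaling the 5 samples ranged from 2.77 to 2.91, with replicate 1 within that range at 2.78, and 7SL took 42.0% of the counts of replicate 1 as deposited. Of 32 groups of values examined in this way 1 stood out, and chance alone gives about 1.6.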

How the results depend on the processing

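For HDM against naive aged the count of 3 members called became 14 with the 7SL share as a covariate, 11 with quantile scaling, 10 with median-of-ratios rescaling, 7 each without 7SL and ribosomal RNA in the totals, with sample weights and with the sex covariate, and 0 at an adjusted p under 0.01. The calls over all genes rose as well, from 717 of 17744 called higher in the main fit. They were 1172 with the 7SL covariate, 1829 with quantile scaling, 1163 with sample weights and 957 with the sex covariate, each of 17744. Rescaling gave 1902 of 17705, and totals without 7SL and ribosomal RNA 1842 of 18819. At an adjusted p under 0.01, 1921 of 17744 genes were called in either direction. The count of members ranged from 0 to 7 when single samples were left out. Rescaling with the sex covariate gave 22, and rescaling with the replicate block 7, both chosen after seeing the data. These 2 fits called 2013 and 1528 of 17705 genes higher. The replicate block alone gave 1 member, beside 641 of 17744 genes called higher. Replicate numbers were not taken as pairs, since same-numbered samples had correlations of their deviations from -0.24 to 0.41. For HDM + Dex against HDM the count of 0 became 2 with the sex covariate, with and without rescaling. Of all genes, 542 of 17705 and 293 of 17744 were called in these 2 fits. For HDM + Dex against naive aged the count of 0 became 2 (Ccne2 and Pcna) with sample weights, a fit that called 5471 of 17744 genes. For naive aged against naive adult the count of 0 became 2 with the sex covariate, 2 with both rescaling and sex, and 2 with sample weights. These fits called 123 of 17744, 174 of 17705 and 784 of 17744 genes. With single samples left out it ranged from 0 to 1, the 1 arising without naive adult replicate 5, where 103 of 17744 genes were called. Mcm3, Mcm2 and Bub1b kept their direction under HDM in all 35 alternatives and missed the threshold in 2, 11 and 9 of them.

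Several fold changes that were not called changed sign. For Mki67, HDM against naive aged gave -0.065 with the replicate block, and HDM + Dex against naive aged gave 0.66 with the 7SL covariate and -0.55 to 0.047 with single samples left out. For Top2a, HDM + Dex against naive aged gave -0.32 with the replicate block, -0.044 with rescaling and the block, -0.18 with sample weights, -0.15 with the sex covariate and -0.14 to 0.41 with single samples left out. For Pcna, HDM against naive aged gave 0.78 with the 7SL covariate, where it was called higher (adjusted p 0.0419, limma), 0.015 without 7SL in the totals, 0.027 with rescaling, 0.086 with rescaling and sex, and 0.0063 with quantile scaling. Pcna also gave 0.41 in HDM + Dex against naive aged with the 7SL covariate, and -0.34 to 0.0038 in HDM + Dex against HDM with single samples left out. The causes were not tested. Members near 1 CPM rested on few reads, since 3 reads were worth up to 0.298 CPM.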
